A study of Mus musculus with 7 samples.

Results

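Ketone body metabolism genes were examined as 6 genes of the deposited count table, taken by symbol from its 23337 gene rows: Oxct1, Bdh1, Acat1, Aacs, Acat2 and Bdh2. All 6 were among the 12561 genes that passed the filter on low counts. RNA was sequenced from mouse cardiomyocytes at postnatal day 30 (P30, 3 libraries, P30a to P30c) and at postnatal day 6 (P6, 4 libraries, P6a to P6d). Mice of both ages carried Rosa-Tom or Rosa-Cas9 alleles and were injected on postnatal day 1 with AAV9-cTNT-Cre, an adeno-associated virus in which the cardiac troponin T promoter drives Cre. Hearts were digested by collagenase perfusion and the cells sorted by fluorescence. The labels name neither the allele of a given library nor the animal it came from. Spread between libraries, which is all that the p-values measure, may therefore be technical in part. A treatment label gives collection on another day, whereas the titles, the age labels and the design text give the ages used here. Age and time since the virus cannot be told apart.

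Ketone bodies are made from acetyl-CoA in mitochondria, chiefly of the liver, and are burnt in mitochondria of heart, muscle and brain. For use, 3-hydroxybutyrate is turned into acetoacetate by Bdh1, acetoacetate is activated by Oxct1 (SCOT) with CoA from succinyl-CoA, and Acat1, the mitochondrial acetoacetyl-CoA thiolase, splits the product into acetyl-CoA. A cytosolic route turns acetoacetate into acetoacetyl-CoA for lipid synthesis by Aacs, and the cytosolic thiolase Acat2 makes acetoacetyl-CoA for sterol synthesis. Bdh2 (Dhrs6) is a cytosolic dehydrogenase that has been assigned to 3-hydroxybutyrate and to siderophore synthesis. Bdh1 and Acat1 also act in the reverse direction in liver. Suckling pups live on fat-rich milk and have high blood ketone levels, which decline at weaning.

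Total counts ran from 15555469 to 19368717 in the P30 libraries and from 10594932 to 51427646 in the P6 libraries. At these depths 3 counts corresponded to 0.167 to 0.210 CPM (counts per 1000000 counts of a library, with library sizes scaled by TMM) at P30 and to 0.0553 to 0.271 CPM at P6. The second principal component of log CPM, with 9.37% of the variance, set P6a and P6b apart from the other P6 libraries. Myh7, the fetal myosin heavy chain, had 148 and 193 CPM in P30a and P30b and 1193 CPM in P30c, against 4055 and 4202 CPM in P6a and P6b and 829 and 589 CPM in P6c and P6d. All 6 endothelial markers and all 5 tested macrophage markers were higher at P30; their summed CPM was 225 to 460 and 10.4 to 32.4 at P30, against 72.9 to 130 and 1.90 to 3.71 at P6. Without P30b, 4 of the 6 endothelial and 3 of the 5 macrophage markers passed, and with library totals 5 and 4. The macrophage markers Ptprc, Cd68, Csf1r and C1qa had 0 to 37 counts per P6 library. They passed the filter on low counts only because of the P30 libraries, where they were high. Of 6 cardiomyocyte markers, Myh6, Tnni3 and Ryr2 were higher and Tnnt2, Actn2 and Pln were not called, or 2 higher and 3 lower with library totals. Their sum was 84013 to 86406 CPM at P30 and 56468 to 67111 CPM at P6, and without Myh6 26878 to 29349 CPM at P30 and 24900.2 to 29611 CPM at P6. Fibroblast markers summed to 124 to 284 CPM at P30 and 122 to 329 CPM at P6, and none of the 5 tested was called. Fibroblast calls were 2 higher without P6b, without P6a and P6b, and with no filter, 1 higher without P30a, and 1 lower without P30b. Smooth muscle and pericyte markers, mostly Acta2, summed to 952 to 1803 CPM at P30 and 969 to 2180 CPM at P6. In that list Pdgfrb, Rgs5 and Myh11 were higher at P30, and Acta2, Tagln and Cspg4 were not called. These 3 of 6 became 1 without P30a, 2 without P30b and 2 without P6b. Without P6a and P6b, 1 of the 6 was called higher and 2 lower. With Acta2 left out, the sum of the list was 101 to 146 CPM at P30 and 55.2 to 107 CPM at P6. Red cell markers summed to at most 0.517 CPM at P30 and 1.33 CPM at P6, with Hba-a1 and Hba-a2 at 0 throughout, and adipocyte markers to at most 0.981 CPM at P30 and 0.0368 CPM at P6.

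Of the 6 genes, 2 passed the test as higher at P30 (Oxct1 and Bdh1) and 1 as lower (Bdh2), and 3 did not pass it (Acat1, Aacs and Acat2). Both genes that rose act in the mitochondrial use of ketone bodies. Of all tested genes, 26.3% were called higher (3307) and 27.8% lower (3490) at an adjusted p under 0.05 in the quasi-likelihood test of edgeR. With library totals in place of TMM scaling the split was 2407 higher and 4660 lower, and 2 members were higher and 3 lower (Acat1, Acat2 and Bdh2). CPM did not overlap between the ages in 3 of the 6 genes, the called ones, and in 56.6% of all tested genes, so these counts lie near the background and the sizes of the changes carry the description. Bdh1 reached the filter's level of 0.613 CPM in 3 of 3 P30 libraries but 1 of 4 P6 libraries, and Bdh2 in 0 of 3 P30 libraries but 4 of 4 P6 libraries, so each was tested because of the age at which it was high.

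**Figure D1:**
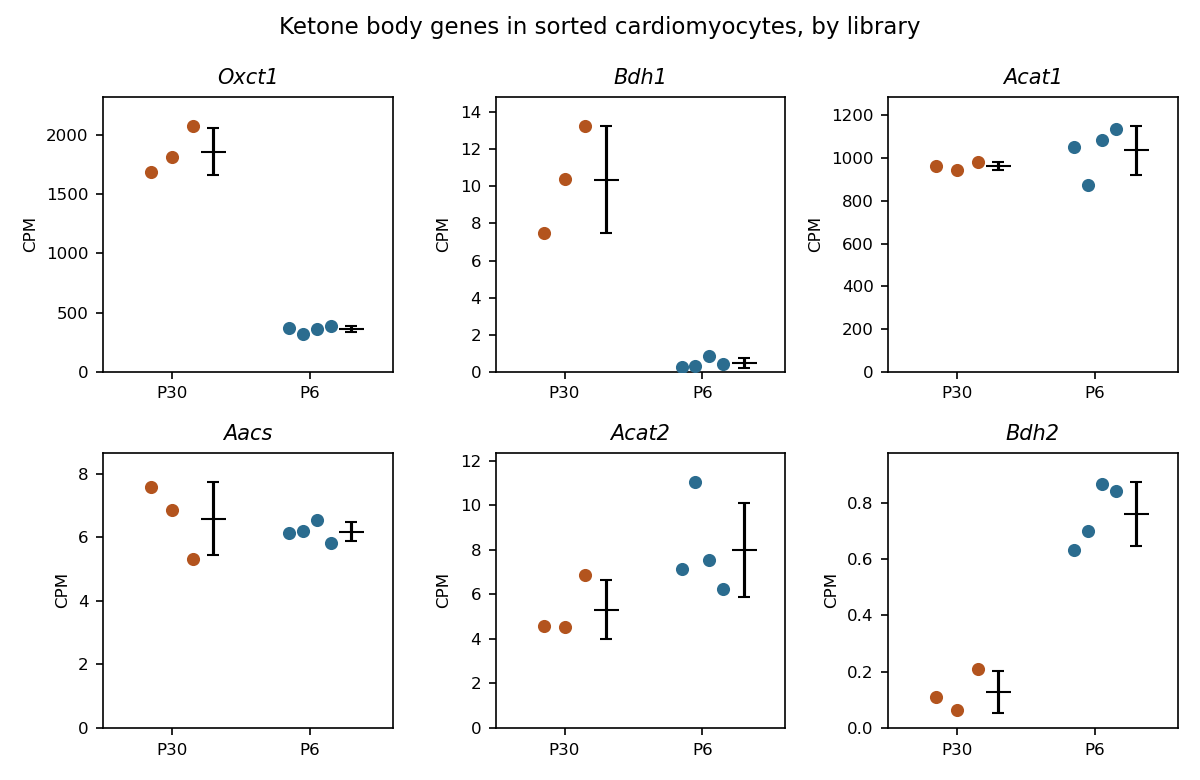
CPM of each of the 6 genes in each library (points), with the mean ± SD beside them (P30, n = 3; P6, n = 4); every vertical axis is linear and starts at 0. Oxct1 and Bdh1 lie higher in every P30 library, Bdh2 lies lower in every P30 library, and Acat1, Aacs and Acat2 overlap between the ages.

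Oxct1, which commits acetoacetate to oxidation, had 1688, 1820 and 2078 CPM in P30a to P30c, against 369, 323, 361 and 383 CPM in P6a to P6d. Every P30 library was far above every P6 library, and the spread within an age was small beside the gap. The mean was 1862 ± 199 CPM at P30 (SD, n = 3) and 359 ± 25.9 CPM at P6 (SD, n = 4). The log2 fold change was 2.38 ± 0.10 (SE), a 5.19-fold rise, with an edgeR adjusted p of 5.89e-07. In bulk RNA, fewer cells with a transcript and less of it per cell cannot be told apart. Oxct1 lies on chromosome 15, 4026383 to 4155344, plus strand (GRCm38, the assembly of mm10). Of its merged exons, 467 bases overlap exons of the antisense gene BC037032, which is 12.6% of its merged exon length. The testis paralogs Oxct2a and Oxct2b had no count in any library.

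Bdh1, the mitochondrial 3-hydroxybutyrate dehydrogenase, had 7.47, 10.4 and 13.2 CPM in P30a to P30c, against 0.271, 0.333, 0.8289 and 0.422 CPM in P6a to P6d. The ages did not overlap, and its fold change was the largest of the 6 genes. The P30 values rest on 134, 161 and 189 counts, and the P6 values on 3, 10, 45 and 5 counts. Its log2 fold change was 4.29 ± 0.37 (SE; edgeR adjusted p = 1.82e-05), a 19.6-fold rise. Summed counts per effective library size gave a ratio of 17.3, with an exact binomial interval at 95% of 13.3 to 22.8 that covers counting error only. The fold depended on P6c, whose Bdh1 level was the highest of that age, and was 29.7 without it. P30c, with the highest Bdh1 of the P30 libraries, had the lowest summed endothelial markers of that age, 225 CPM beside 330 CPM for P30a and 460 CPM for P30b; it also had the highest Oxct1 and Myh7 of that age. Summed macrophage markers were lowest in P30a, which had the lowest Bdh1 (10.4 CPM, beside 32.4 CPM for P30b and 15.002 CPM for P30c). The part of the higher endothelial and macrophage markers at P30, and of Pdgfrb, Rgs5 and Myh11, in these values was not tested.

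Bdh1 lies on chromosome 16, 31422280 to 31458901, plus strand, and 533 bases of its exons overlap an antisense transcript. RefSeq annotates more than 1 start for it, and counts per gene do not tell them apart. Because Oxct1 and Bdh1 rose together, their RefSeq promoter windows (GRCm38.p6) are shown, each from 250 bases before an annotated start to 50 after it, together with that of Bdh2, the member that fell. Capitals mark the 50 bases from the annotated start onward. The windows lie on the plus strand at chr15:4026178-4026477 for Oxct1, chr16:31422047-31422346 and chr16:31428503-31428802 for the upstream and downstream starts of Bdh1, and chr3:135280971-135281270 for Bdh2.
Oxct1: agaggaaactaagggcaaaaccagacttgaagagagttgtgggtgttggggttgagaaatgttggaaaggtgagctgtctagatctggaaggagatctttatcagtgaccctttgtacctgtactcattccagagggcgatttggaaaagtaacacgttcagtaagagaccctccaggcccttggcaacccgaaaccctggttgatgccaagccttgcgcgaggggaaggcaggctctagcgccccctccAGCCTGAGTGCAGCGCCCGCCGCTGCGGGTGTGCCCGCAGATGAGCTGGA
Bdh1 upstream: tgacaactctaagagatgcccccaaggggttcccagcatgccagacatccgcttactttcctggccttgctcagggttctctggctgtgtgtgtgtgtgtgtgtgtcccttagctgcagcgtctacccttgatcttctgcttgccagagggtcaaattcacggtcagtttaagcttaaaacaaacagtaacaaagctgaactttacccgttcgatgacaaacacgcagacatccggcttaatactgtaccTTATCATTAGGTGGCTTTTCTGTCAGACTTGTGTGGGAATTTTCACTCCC
Bdh1 downstream: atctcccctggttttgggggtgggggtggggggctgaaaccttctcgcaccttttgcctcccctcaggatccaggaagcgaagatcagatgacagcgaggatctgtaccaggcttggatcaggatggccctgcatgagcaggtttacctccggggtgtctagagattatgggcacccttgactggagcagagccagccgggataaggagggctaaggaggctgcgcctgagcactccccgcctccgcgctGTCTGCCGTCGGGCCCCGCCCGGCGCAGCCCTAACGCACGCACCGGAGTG
Bdh2: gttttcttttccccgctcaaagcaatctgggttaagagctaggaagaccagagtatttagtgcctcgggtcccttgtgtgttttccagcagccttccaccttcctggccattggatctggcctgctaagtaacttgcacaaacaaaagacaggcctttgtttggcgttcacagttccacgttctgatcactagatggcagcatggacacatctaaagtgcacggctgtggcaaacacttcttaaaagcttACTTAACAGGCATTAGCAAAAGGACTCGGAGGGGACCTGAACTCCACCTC

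The windows differ in base composition: 55.3% of bases were G or C at Oxct1, 48.3% at the upstream and 63.7% at the downstream start of Bdh1, and 48.7% at Bdh2. Both strands were searched for the nuclear receptor site AGGTCA, the longer ERR site TCAAGGTCA that contains it, the GC box GGGCGG, the CCAAT box and the E-box CACGTG. Among 32851 RefSeq promoter windows these letters were found in 16.3%, 0.4%, 35.7%, 37.4% and 7.2%, in that order. The Oxct1 window and the upstream Bdh1 window held none of them. The downstream Bdh1 window held 1 GC box on the minus strand, whose first base as printed is the base numbered 16 from the start. The Bdh2 window held 1 CCAAT box, on the minus strand, with its first base as printed at -141. Of the members with a window, Acat2 held 1 GC box, starting at -33 on the minus strand, and Aacs held none of the motifs.

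Acat1, which completes ketone oxidation and also acts in isoleucine breakdown, had 963, 946 and 982 CPM in P30a to P30c, against 1052, 872, 1086 and 1135 CPM in P6a to P6d. The P30 libraries lay within the P6 range, so the ages overlapped. The log2 fold change was -0.10 ± 0.10 (SE; edgeR adjusted p = 0.393), with an approximate 95% interval of -0.36 to 0.15. Without P6b the adjusted p was 0.0468 at a log2 fold change of -0.18. Acat1 lies on chromosome 9, 53580522 to 53610382, minus strand. Oxct1 and Acat1 stand on either side of acetoacetyl-CoA, and their relative level turned round between the ages. Per kilobase of merged exons, Oxct1 had 456, 492 and 562 CPM per kb in P30a to P30c beside 256, 252 and 261 for Acat1, whereas it had 99.7, 87.2, 97.4 and 104 CPM per kb in P6a to P6d beside 280, 232, 289 and 302 for Acat1. Oxct1 was above Acat1 in 3 of 3 P30 libraries and below it in 4 of 4 P6 libraries.

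**Figure D2:**
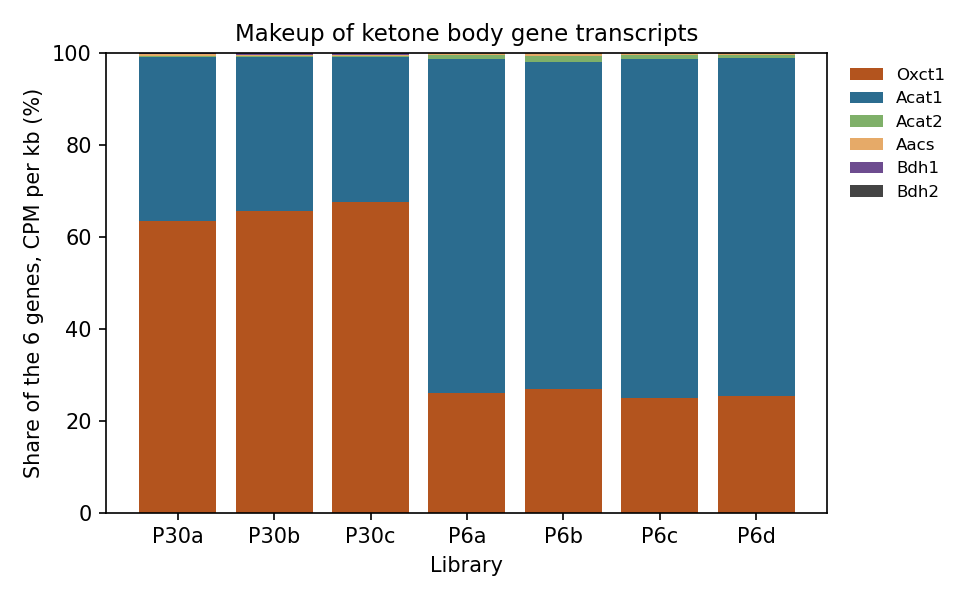
Share of each of the 6 genes in their summed CPM per kb of merged exons (vertical axis, %) in each library. Oxct1 makes up 63.5% to 67.6% in the P30 libraries and 24.9% to 26.8% in the P6 libraries, and Acat1 takes nearly all of the rest.

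In this makeup per length, Oxct1 held 65.6% ± 2.05 at P30 (SD, n = 3) and 25.7% ± 0.831 at P6 (SD, n = 4), and Acat1 held 33.6% ± 2.11 at P30 and 72.9% ± 1.15 at P6. The order at P30 was Oxct1 (503 CPM per kb), Acat1 (256), Bdh1 (2.67), Acat2 (2.09), Aacs (1.71) and Bdh2 (0.0303). At that age the libraries of Bdh1, Acat2 and Aacs overlapped each other in their levels, and the remaining neighbours did not. At P6 the order was Acat1 (276 CPM per kb), Oxct1 (97.0), Acat2 (3.14), Aacs (1.603), Bdh2 (0.179) and Bdh1 (0.119), and only Bdh2 and Bdh1 overlapped among neighbours. Bdh1 thus stood last of the 6 by mean at P6. The 3 mitochondrial enzymes summed to 762 ± 57.8 CPM per kb at P30 and 373 ± 37.3 at P6, and the 3 cytosolic genes to 3.83 ± 0.284 at P30 and 4.93 ± 0.843 at P6. Merged exon length counts every annotated exon, so genes with rarely used exons appear lower per length.

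**Figure D3:**
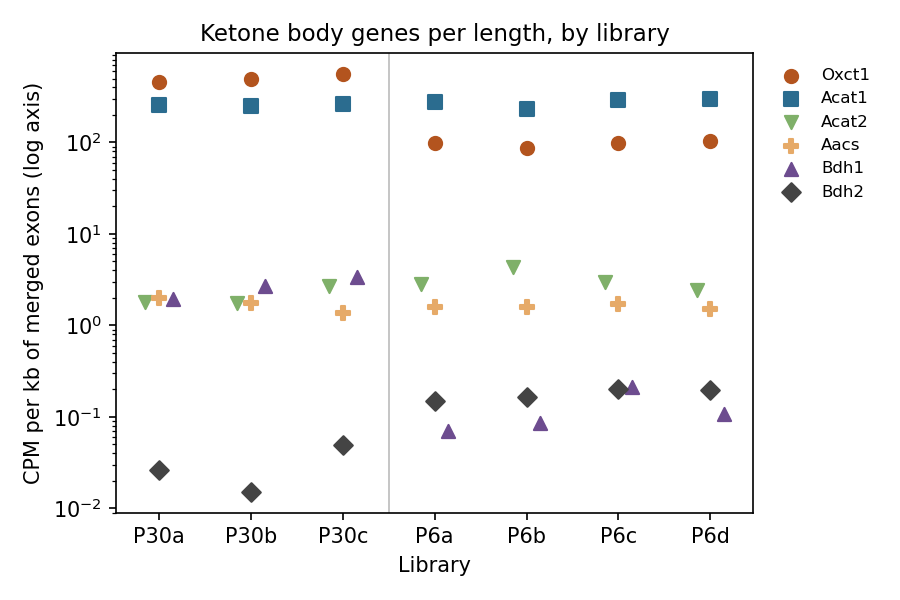
CPM per kb of merged exons (log axis) of the 6 ketone body genes in each library, with the points of Bdh1 and Acat2 set aside so that they stay visible. Oxct1 is above Acat1 in the 3 P30 libraries and below it in the 4 P6 libraries, and the other genes lie far below both, with Bdh1 among the cytosolic genes at P30 and near Bdh2 at P6.

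Among the cytosolic genes, Aacs, the acetoacetyl-CoA synthetase, had 7.58, 6.85 and 5.33 CPM in P30a to P30c, against 6.15, 6.19, 6.56 and 5.82 CPM in P6a to P6d. The ages overlapped, and P30 held both the highest and the lowest library. Its log2 fold change was 0.09 ± 0.18 (SE; edgeR adjusted p = 0.691), with an approximate 95% interval of -0.37 to 0.55. Aacs lies on chromosome 5, 125475814 to 125517410, plus strand.

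Acat2 had 4.57, 4.52 and 6.87 CPM in P30a to P30c, against 7.14, 11.05, 7.57 and 6.24 CPM in P6a to P6d. P30a and P30b were below every P6 library, and P30c lay between P6d and P6a. The log2 fold change of -0.60 ± 0.25 (SE) had an edgeR adjusted p of 0.0661, with an approximate 95% interval of -1.25 to 0.04. With 1 library left out the adjusted p ran from 0.0314 without P30c to 0.201 without P30a, and it was 0.0446 without P6d. Acat2 lies on chromosome 17, 12942890 to 12960747, minus strand, next to its close copy Acat3, which had 1 to 5 counts per library. The sources used here do not say how reads common to Acat2 and Acat3 were assigned, and the Acat2 counts are uncertain to that extent. Exons of Acat3 overlap those of Tcp1 on the other strand by 571 bases.

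Bdh2 was scarce at both ages, with 2, 1 and 3 counts in P30a to P30c, against 7, 21, 47 and 10 counts in P6a to P6d. In CPM it had 0.111, 0.0646 and 0.210 at P30, against 0.633, 0.699, 0.866 and 0.843 at P6, so the ages did not overlap. The P30 values are at or below the level of 3 counts. Its log2 fold change was -2.55 ± 0.53 (SE; edgeR adjusted p = 0.00268). Summed counts were 6 at P30 and 85 at P6, which is 6.30-fold lower at P30 per effective library size, with an exact binomial interval at 95% of 2.78 to 17.6 for counting error only. Bdh2 lies on chromosome 3, 135281221 to 135304426, plus strand.

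Shares of raw counts within a library set the mitochondrial gene against the cytosolic gene of like activity, with no library scaling. Bdh1 made up 98.5%, 99.4% and 98.4% of Bdh1 and Bdh2 counts in P30a to P30c, against 30.0%, 32.3%, 48.9% and 33.3% in P6a to P6d. Bdh1 counts exceeded Bdh2 counts in every P30 library and were fewer in every P6 library. The difference was 62.7 percentage points, or 60.7 with counts per kilobase (two-sided exact permutation p = 0.0286, the smallest that 35 splits allow, and 0.0429 after Benjamini-Hochberg adjustment over 3 shares). Bdh1 and Bdh2 each separated the ages already, in opposite directions, so their share had to separate them and this p adds no support. Oxct1 made up 99.6% ± 0.0967 of Oxct1 and Aacs counts at P30 and 98.3% ± 0.169 at P6, with the same exact permutation p of 0.0286 and 0.0429 after adjustment. That share restates the rise of Oxct1 beside Aacs, which was not called, and its p adds no separate support. Acat1 made up 99.5% ± 0.127 of Acat1 and Acat2 counts at P30 and 99.2% ± 0.313 at P6, and that share did not pass (exact permutation p = 0.257, adjusted 0.257).

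Ketone bodies cross membranes through monocarboxylate carriers. Of 9 genes listed for transport and sensing, 8 were in the table, 5 were tested, 2 were lower at P30 and none higher, with a median log2 fold change of -0.48 beside -0.02 over all tested genes. Slc16a1 (MCT1), the main cardiac carrier for ketone bodies and lactate, had 758, 714 and 727 CPM in P30a to P30c, against 508, 498, 682 and 708 CPM in P6a to P6d. Its ages did not overlap, but P6c and P6d were close to the P30 level, and the log2 fold change of 0.29 ± 0.13 (SE) did not pass (edgeR adjusted p = 0.0929, 0.0397 without P6d, and 0.0018 without P6c and P6d). Slc16a3 (MCT4), known for lactate export, fell to 1.54 ± 0.125 CPM at P30, against 6.57 ± 0.789 CPM at P6, and Slc16a7 (MCT2) to 8.44 ± 1.17 CPM at P30, against 14.9 ± 2.67 CPM at P6 (edgeR adjusted p = 5.1e-05 and 0.00388). Bsg (basigin), the chaperone of Slc16a1, had 1239 ± 92.3 CPM at P30 and 1299 ± 51.3 CPM at P6, and Slc16a6, a ketone exporter in zebrafish liver, 10.3 ± 1.65 CPM at P30 and 14.2 ± 5.77 CPM at P6; neither passed the test, though Bsg was called lower with library totals (log2 fold change -0.25, edgeR adjusted p = 0.0183) and Slc16a6 without P6a and P6b (-0.89, 0.00766). Emb had 2 to 7 counts per P30 library and 2 to 44 per P6 library, and Slc5a8 had at most 3 counts in a P30 library and 0 in the P6 libraries.

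Oxct1 takes its CoA from succinyl-CoA, which the 2-oxoglutarate dehydrogenase complex makes and succinyl-CoA synthetase consumes. Of these 6 genes 5 rose and none fell, with a median log2 fold change of 0.45. Over all tested genes 26.3% were called higher and 27.8% lower, the shares to set beside this and the other list counts. Dld, the third subunit of the complex, was not called (log2 fold change 0.05 ± 0.13, edgeR adjusted p = 0.77). Ogdh, the first subunit of the complex, rose to 5243 ± 213 CPM at P30, against 2554 ± 96.6 CPM at P6 (log2 fold change 1.04 ± 0.07, edgeR adjusted p = 4.96e-06), and Dlst, the second, by 0.70 ± 0.08 on the log2 scale. Sucla2, the ATP-forming subunit of succinyl-CoA synthetase, had 1428 ± 27.7 CPM at P30 and 935 ± 146 CPM at P6 (log2 fold change 0.61 ± 0.12). Suclg2, the GTP-forming subunit, rose by 0.28 ± 0.07, and Suclg1, shared by both forms, by 0.25 ± 0.09. The Suclg1 call, with an edgeR adjusted p of 0.0452, was lost when any library other than P6d was left out (0.054 to 0.117). Scaled by library totals, 3 of the 6 passed, and that scaling moved the median of all genes by -0.18 on the log2 scale.

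Thiolases other than the Acat enzymes gave 2 of 4 tested genes higher and none lower. With library totals, without P6b, and without P6a and P6b, 1 of the 4 was called lower, and without P30c 1 of 5. Acaa2 had 1976 ± 209 CPM at P30 and 2342 ± 221 CPM at P6 and was not called (log2 fold change -0.25 ± 0.10, edgeR adjusted p = 0.0728). Hadhb, the thiolase subunit of the trifunctional protein of beta-oxidation, had 1527 ± 90.5 CPM at P30 and 1115 ± 144 CPM at P6 (log2 fold change 0.45 ± 0.11), and Scp2, of peroxisomes, rose by 0.57 ± 0.09. Genes of sterol and fatty acid synthesis in the cytosol, not all of which use acetoacetyl-CoA, gave 3 of 5 lower and none higher, with 2 not called. Without P6a and P6b, 1 of the 5 was called higher beside 3 lower. Hmgcs1, a cytosolic enzyme of sterol synthesis, had 68.7 ± 7.04 CPM at P30 and 109 ± 12.5 CPM at P6 (log2 fold change -0.67 ± 0.12, edgeR adjusted p = 0.00105). Acly, which supplies cytosolic acetyl-CoA, fell by 1.00 ± 0.10, and Fasn, the fatty acid synthase, by 1.06 ± 0.21 on the log2 scale.

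Regulators of these pathways were 5 higher and 2 lower of 10 tested, or 2 and 2 with library totals. Ppara, a fatty acid receptor that induces fat oxidation genes, had 76.7 ± 6.45 CPM at P30 and 57.5 ± 5.28 CPM at P6 (log2 fold change 0.42 ± 0.10). The related lipid receptors rose by more, from low levels: Ppard to 2.61 ± 0.312 CPM at P30, against 0.744 ± 0.125 CPM at P6, and Pparg to 5.35 ± 1.41 CPM at P30, against 0.842 ± 0.442 CPM at P6. Their P6 values rest on 9 to 41 counts per library for Ppard and 8 to 65 for Pparg. Esrra, a nuclear receptor of mitochondrial genes, and the mitochondrial deacylase Sirt3 rose by 0.39 ± 0.10 and 0.35 ± 0.08 on the log2 scale, and these calls and that of Ppara were lost with library totals (edgeR adjusted p = 0.0961, 0.0828 and 0.0962). Ppargc1a, a coactivator of mitochondrial genes, had 199.7 ± 19.6 CPM at P30 and 478 ± 93.5 CPM at P6 (log2 fold change -1.26 ± 0.15), and Srebf2, the sterol regulator, fell by 1.54 ± 0.12.

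**Figure D4:**
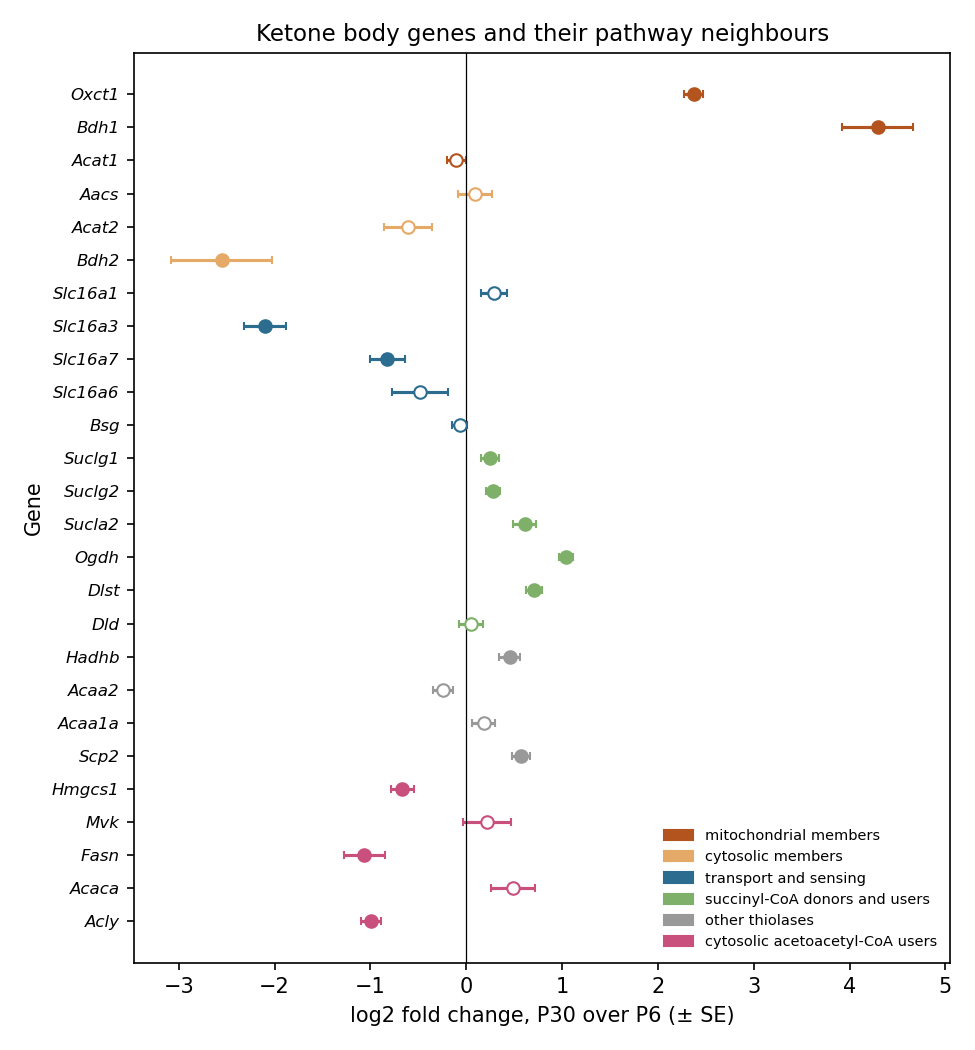
Log2 fold change, P30 over P6, ± SE of the 6 ketone body genes and the tested genes of 4 pathway lists (transport and sensing, succinyl-CoA donors and users, other thiolases, and cytosolic acetoacetyl-CoA users), coloured by list; the regulators are not drawn. The list shown as cytosolic acetoacetyl-CoA users also holds other genes of sterol and fatty acid synthesis. Filled points passed the test. Of the genes drawn, Bdh1 and Oxct1 lie farthest right at 4.29 and 2.38 and Bdh2 farthest left at -2.55.

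The genes whose profile over the 7 libraries was nearest to that of Oxct1, by the root mean square difference of centred log2 CPM among 7818 genes of at least 10 CPM, were Fam69b (0.0788), Ccbl2 (0.120) and Myot (0.156). Fam69b had 77.9 ± 8.39 CPM at P30 and 14.1 ± 1.36 CPM at P6, a log2 fold change of 2.47 ± 0.12. Nearest to Bdh1 were Ogdhl (0.304), Csf1 (0.450) and Cyr61 (0.458), and nearest to Bdh2 were Sntb1 (0.139), Tubb5 (0.173) and Hmgb1 (0.192). A prior count of 2 in the log values pulls the profiles of the low-count genes Bdh1 and Bdh2 inward, so their neighbours had smaller fold changes than they did.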

How the data were processed

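Raw counts per gene were deposited by the authors for 7 libraries; per the labels, 10 ng of RNA was copied with SMART-Seq v4 and made into Nextera XT libraries. STAR 2.5.3a, featureCounts from Subread 1.5.2, CASAVA 1.8 and mm10 are named in the submitters' processing notes. For the annotation, the strand setting and multi-mapping reads nothing is stated there, which leaves overlapping and near-identical genes uncertain. The age that begins each column name gave its group. A deposited table of fold changes was not used here.

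Genes were filtered with filterByExpr, scaled by TMM and tested in edgeR 4.0.16 (R 4.3.3) with age as the model term, with Benjamini-Hochberg adjustment across 12561 genes. SE is the log2 fold change divided by the square root of F, and approximate intervals use 5 residual degrees of freedom. Within 200 genes simulated to change, 66.0% of 2-fold and 90.0% of 4-fold changes were found, with 4.3% of calls false, over 5 simulations of 12561 genes. In the data 6797 genes were called, far more than the 200 simulated, so the rates there may differ. Lengths and positions come from GENCODE M21 (22872 of 23337 symbols matched, with synonyms) and promoters from RefSeq (5 of 6 members matched). Libraries of an age differed by a chi-square per gene of at least 12.3. Alternatives were DESeq2 1.42.0, other scalings, no filter, a length trend removed and libraries left out. Named were all 6 members, every close-copy and transport gene with a count, genes past the test in the other lists, and the 3 nearest profiles per called member. Named after their values were seen were Oxct2a and Oxct2b, which had no count, and Acaa2, in which 1 library stood apart. The same holds for Dld, which was not called, Myh7 and single cell type markers. Members, lists and tests were chosen with earlier results of these data known. Some pathway genes are not reported here and were left out of the list counts.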

Additional observations from a re-analysis of the deposited data

Results flagged for a closer look

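In 39 groups of 4 P6 values checked for a library far from the rest, 2 were flagged, and chance flags about 1 in 20 groups. For Acaa2, the mitochondrial 3-ketoacyl-CoA thiolase, P6b (2011 CPM) stood below the nearest other library by 0.931 of the range of the P6 libraries. For Ppargc1a, P6a (618 CPM) stood above the others by 0.896 of the range. No value of the 6 ketone body genes was flagged.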

How the results depend on the processing

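Over 14 alternatives Oxct1, Bdh1 and Bdh2 kept their direction and their call, with log2 fold changes of 2.20 to 2.45, 3.84 to 5.03 and -3.03 to -2.25. The number of genes called was 5697 to 7296, against 6797, and 2 of the 6 ketone body genes were higher in every alternative. The number lower, 1 in the main comparison, was 3 with library totals (Acat1 at -0.28 and Acat2 at -0.795 joined Bdh2), 1 to 2 with 1 library left out, and 2 without P6a and P6b, an alternative chosen after seeing the data. Reversed signs, not called under that alternative, were Acat1 at 0.0226 and Slc16a6 at 0.0813 without P6c and P6d, also chosen after seeing the data, Aacs at -0.0911 with library totals, Aacs at -0.0218 without P30a (up to 0.221 without P30c), and Bsg at 0.0875 with the length trend removed. Library totals moved the median of all genes by -0.18. The cause of the other reversals was not tested. Without P6c and P6d the Bdh1 rise was 32.7-fold and the Pparg rise 12.6-fold. The differences in share were 1.28 to 1.41 percentage points for Oxct1, 0.0903 to 0.325 for Acat1 and 60.6 to 66.9 for Bdh1 with 1 library left out, where 6 libraries are too few for the exact test to pass, and 1.29, 0.357 and 60.7 with counts per kilobase. With Acat3 added to Acat2 the Acat1 difference was 0.234. Counts limit Bdh2 at P30 and Bdh1 at P6. No paired analysis was possible because the count columns carry letters that no label ties to the replicate numbers of the titles.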
